A study of Saccharomyces cerevisiae with 91 samples.

Results

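W303 and BY4741 are both laboratory strains of the budding yeast Saccharomyces cerevisiae, and their chromatin folding was compared here by Micro-C. In Micro-C, micrococcal nuclease digests crosslinked chromatin down to nucleosomes, the ends of neighbours in space are joined, and each sequenced pair reports 2 nucleosomes that lay close together. The W303 data were 2 libraries of 1 replicate, summed, chosen by the strain given in the labels, and they were 2 of the 91 samples of the series. They were set against 16 replicates of BY4741, from 18 libraries. Both strains were grown in YPD medium at 30 °C, and neither group carries a further mutation or treatment in its labels. The series also holds mutants and treatments, of which rtt109d (YPD, 30 °C) and the temperature-sensitive ssu72-2 (YPD, 32 °C) appear below at sites where W303 differs from BY4741. Single values from the mutants H4K16Q, H4Q93E, H4R23A, H4d4-14, med1d, rpd3d and top1d and from the diamide treatment, all at 30 °C, are given beside them. A value from BY4741 grown at 32 °C is given as well.

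BY4741 derives from the strain S288C, whose genome is the yeast reference, and carries designed deletions in marker genes. W303 descends in large part from the same ancestry but holds stretches from other strains. Yeast strains differ most near chromosome ends, where families of nearly identical genes for sugar transport, cell-wall proteins and stress proteins are gained, lost and exchanged, and in the places of Ty retrotransposons. The build named in the submitters' processing notes is sacCer3, an S288C genome.

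The main measurement was a count of pairs with one end on either side of an NDR, a nucleosome-depleted region such as promoters have, at 6719 NDRs. Of these, 3590 had a gene start close by, at most 500 bp downstream or 50 bp upstream. Counts are given below as CPM, which means pairs per 1000000 of a library's NDR-spanning pairs, with library sizes scaled by TMM. A low count can come from fewer copies of a site, from reads that did not map to the reference, or from fewer contacts across the site, and these cannot be told apart in such tables.

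W303 had 2188240 NDR-spanning pairs, 983975 and 1204265 in its libraries, against 105690 to 1304896 in the BY4741 replicates. The libraries differed from each other with a chi-square of 3.26 per degree of freedom over NDRs, against a median of 3.27 for pairs of BY4741 replicates. This measure rises with depth, and the W303 libraries were deeper than most BY4741 replicates, so the 2 values are not directly comparable. Replicates 13 and 17 of BY4741 stood apart, with an SD of 0.814 and 1.51 for log2 CPM over the BY4741 median, against 0.268 in W303 and 0.176 to 0.419 in the other BY4741 replicates. The column names carry a number that the labels do not explain, and W303 shares its number, 9, with replicate 5 of BY4741. W303 is 1 replicate, so the test assumes that it varies as BY4741 does. No label says that replicates came from separate cultures, so a p-value here stands against a spread that may be technical.

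The comparison of W303 with BY4741 asks where the strains differ in NDR-spanning contacts. W303 was lower at 40 NDRs and higher at 3. The larger groups of low NDRs lay at the left end of chromosome VII with COS12 and PAU11 and at the right ends of chromosomes XIV and XIII with HXT17 and FET4. Further groups lay on the right arm of chromosome I with FLO1, inward of its end, and at the hexose transporter pair HXT6 and HXT7. Other low NDRs lay at interior sites of chromosomes I, V, VII, VIII and XI. The only NDRs past the test in the other direction lay at and beside MEP1, an ammonium permease gene. The test was edgeR's quasi-likelihood test with Benjamini-Hochberg adjustment over 6719 NDRs at 0.05, so that 0.595% of all NDRs were called lower and 0.0446% higher. Either way, 43 NDRs (0.64%) were called. At an unadjusted p below 0.05 there were 175 lower (2.6%) and 63 higher (0.938%) NDRs, 3.54% of all, under the 5% that this threshold allows with no difference. The log2 value of W303 over BY4741 had a median of -0.01, with 5% of NDRs below -0.50 and 5% above 0.27. When counts were scaled to all pairs listed in the distance tables instead, edgeR called 0 NDRs, with 22 at an unadjusted p below 0.05, and the median log2 value became 0.44. DESeq2 was not run with that scaling.

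Placed against the range of the 16 BY4741 replicates with no test, W303 lay below it at 153 NDRs (2.28%) and above it at 91 (1.35%), together 3.63%. A further replicate that varied like the 16 would lie outside their range at a share of 0.118 of NDRs. Lying outside the range is therefore no sign of a difference by itself. Scaled to listed pairs, the split was 24 below and 195 above. Of the NDRs outside the range, 42 were also 2-fold or more from the BY4741 median (0.625% of all NDRs), and all 42 were low. Of the 43 called NDRs, 42 lay outside the range. At 41 of the 43, both W303 libraries lay outside it on the same side, but they are the parts of the sum that was tested. All 40 low NDRs were below BY4741 replicate 5, and the 3 high ones were above it. That replicate is among the 16, so for the 42 this follows from lying outside the range. At the called NDR within the range, nearest PDR18, W303 had 27.9 CPM and replicate 5 had 64.0 CPM. Together, 51 NDRs were called or 2-fold outside the range, and they fell into 13 loci when NDRs within 10 kb of each other were joined.

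Very low values relative to BY4741 lay at the left end of chromosome VII, where 8 neighbouring NDRs from 733 to 10336 bp were all called. This end holds COS12, a member of the COS family of membrane proteins, PAU11, a seripauperin of the stress-induced PAU family, YPS5, related to the yapsin proteases, and VEL1. The NDR nearest PAU11, at 6210 bp, had 12.1 CPM in W303, from libraries at 9.53 and 14.1, against 106 at the lowest, 136 at the median and 232 at the highest in BY4741. W303 thus kept 8.94% of the BY4741 median, and the groups did not overlap. The log2 value was -3.47 ± 0.28 (SE, edgeR adjusted p = 2.59e-11).

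The NDR inside COS12, at 3592 bp, had 10.5 CPM in W303 and 88.0, 116 and 187 CPM at the lowest, median and highest in BY4741, a log2 value of -3.37 (edgeR adjusted p = 4.42e-11). The NDR at its start, at 2576 bp, had 8.09 CPM in W303 and 53.2, 82.8 and 161 CPM in BY4741. The log2 value was -2.72 at 733 bp and went down step by step to that at 6210 bp, and from 7019 bp inward the difference was smaller. The NDR at the start of PAU11, at 7019 bp, had a log2 value of -1.66, that of YPS5 at 8385 bp -1.08, and that nearest VEL1 at 10336 bp had 45.7 CPM in W303, against 65.2 CPM in the lowest BY4741 replicate, a call lost with the shallower W303 library alone (edgeR adjusted p = 0.113). The next NDR, at MNT2 and 12401 bp, had 72.4 CPM in W303, just under the lowest BY4741 replicate at 72.7 CPM, and was not called (log2 -0.48, edgeR adjusted p = 0.734). No NDR of W303 was empty: the lowest in the genome, at 733 bp beside COS12, held 16 pairs.

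The right end of chromosome XIV had 8 neighbouring NDRs, from 772160 to 783335 bp, below the BY4741 range and at least 2-fold below its median, 6 of them called. It holds HXT17, a hexose transporter gene, MAN2, a mannitol dehydrogenase gene, AIF1, which encodes a mitochondrial cell-death effector, and PAU6. The NDR at the start of HXT17, at 772160 bp, had 6.88 CPM in W303 and 53.5, 96.4 and 125 CPM at the lowest, median and highest in BY4741. Its log2 value of -3.74 ± 0.30 (SE, edgeR adjusted p = 2.97e-11) was the lowest of all NDRs. Inside HXT17, at 773336 bp, W303 had 31.6 CPM, against 138, 160 and 198 CPM in BY4741.

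At AIF1 and PAU6 the spread of BY4741 was much wider, and the highest value at each came from replicate 17, which stood apart above. The NDR at its start, at 778979 bp, had 34.8 CPM in W303 and 114, 190 and 669 CPM at the lowest, median and highest in BY4741, a log2 value of -2.56 ± 0.58 (SE, edgeR adjusted p = 0.0157). The groups did not overlap, though the BY4741 replicates, with replicate 17 included, spanned several fold. At PAU6, at 781553 bp, W303 had 80.5 CPM against 96.8, 219 and 927 CPM in BY4741, and the test did not call it (edgeR adjusted p = 0.956). The NDR before this run, nearest PDR18, an ABC transporter gene, was called with 27.9 CPM in W303, although 1 BY4741 replicate was lower at 8.92 CPM, the worth of 1 pair in BY4741 replicate 17. This call was lost with the deeper W303 library alone (edgeR adjusted p = 0.102). So was that of the AIF1 NDR at 779283 bp (edgeR adjusted p = 0.064), which DESeq2 did not call either (adjusted p = 0.083).

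HXT6 and HXT7 encode nearly identical high-affinity glucose transporters that stand next to each other on chromosome IV, far from its ends. Between them and beside them, 4 neighbouring NDRs from 1156559 to 1161796 bp were low. The NDR nearest HXT6, at 1159373 bp, had 15.0 CPM in W303, from libraries at 10.5 and 18.4, and 35.3, 80.0 and 116 CPM at the lowest, median and highest in BY4741. Its log2 value was -2.44 ± 0.25 (SE, edgeR adjusted p = 8.38e-09). The NDR nearest HXT7, at 1156559 bp, had 12.5 CPM in W303 and 23.5, 64.7 and 88.7 CPM in BY4741. At the start of HXT6, at 1161796 bp, the log2 value was -1.12. Outside this stretch the difference ended on the HXT3 side: HXT3, a low-affinity glucose transporter gene, had 57.5 CPM in W303 and 64.4 CPM at the BY4741 median, with W303 within the range. On the other side YDR341C, the arginyl-tRNA synthetase gene, was called at a log2 value of -0.79, a call lost with the shallower W303 library alone (edgeR adjusted p = 0.208). Reads from HXT6 and HXT7 are open to being split or dropped because the genes are almost the same, so which of the pair was low is uncertain.

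At the right end of chromosome XIII, 6 neighbouring NDRs from 914854 to 923071 bp were below the BY4741 range and at least 2-fold below its median, and 3 were called. FET4, a low-affinity iron transporter gene, had 38.8 CPM in W303 at its start NDR and 79.4, 97.5 and 125 CPM at the lowest, median and highest in BY4741. The NDR at YMR320W, at 916631 bp, had 36.8 CPM in W303 and 92.4, 123 and 187 CPM in BY4741, a log2 value of -1.72 ± 0.21 (SE, edgeR adjusted p = 3.96e-07). The NDRs at SNO4, a gene of the Hsp31 family, and at PAU19 (922290 bp) were below the range at 112 and 111 CPM in W303, against lowest BY4741 values of 247 and 188 CPM, but did not pass the test. Without BY4741 replicate 17 that of SNO4 passed (edgeR adjusted p = 0.037), as did the outermost NDR of chromosome XIV, at YNR077C (edgeR adjusted p = 0.037).

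On the right arm of chromosome I, 6 neighbouring NDRs from 198607 to 206481 bp were low and 5 were called. They lie between SWH1, an oxysterol-binding protein gene, and the middle of FLO1, which encodes a flocculin that makes cells stick to each other. The NDR upstream of FLO1 at 202656 bp had 53.8 CPM in W303, from libraries at 41.9 and 62.9, against 141, 183 and 259 CPM at the lowest, median and highest in BY4741. Its log2 value was -1.71 ± 0.27 (SE, edgeR adjusted p = 6.79e-05). The other FLO1 NDRs of this run had log2 values of -1.15 to -1.54. The next NDR outward, at 211080 bp, had 38.4 CPM in W303, within the BY4741 range, and was not called (log2 -0.50). FLO1 has close relatives in FLO5 and FLO9, so its reads may be shared. The NDRs of FLO5 at 524944 and 525588 bp on chromosome VIII had log2 values of -0.08 and -0.02, and that inside FLO9 -0.67, and none of these was called. Nearer the end of chromosome I, beside the acid phosphatase gene PHO11, W303 had 19.8 CPM at 229457 bp against 36.1, 94.0 and 339 CPM in BY4741 and missed the test (edgeR adjusted p = 0.0707). The PHO11 NDR at 227388 bp had a log2 value of -1.30 and also missed it. The NDR at 229457 bp passed without BY4741 replicate 2, 6, 7, 9 or 17 (edgeR adjusted p = 0.030, 0.050, 0.022, 0.038 and 0.030).

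The remaining low sites were interior. On chromosome VIII, 4 called NDRs lay beside a Ty frame (YHL009W-B): the start of YAP3, a bZIP transcription factor gene, at 85319 bp, and the NDRs from 91866 to 93203 bp beside YHL008C. At YHL008C the NDR at 92582 bp had 57.5 CPM in W303 and 106, 142 and 186 CPM at the lowest, median and highest in BY4741, a log2 value of -1.32 ± 0.22 (SE, edgeR adjusted p = 0.000334). The call at YAP3 was lost with the shallower W303 library alone (edgeR adjusted p = 0.056). Farther along the same chromosome, 3 called NDRs flanked or lay in the CUP1 repeat, which carries the copper metallothionein genes in tandem copies. They lay at CIC1, inside YHR054C and inside RSC30, a gene of a chromatin-remodelling complex. YHR054C, whose sequence is repeated there, had 34.0 CPM in W303 and 41.5, 81.5 and 128 CPM in BY4741, a log2 value of -1.33 ± 0.31 (SE, edgeR adjusted p = 0.0168). The W303 libraries gave 21.0 and 43.8 CPM there, and only the first of these lay below the BY4741 range. DESeq2 did not call YHR054C (adjusted p = 0.647). In the other groups of the series YHR054C ran from 27.7 CPM in ssu72-2 replicate 1 to 153 CPM in diamide replicate 1. It was also below W303 in ssu72-2 replicate 3 (27.9 CPM), H4R23A replicate 2 (31.1 CPM) and med1d replicate 2 (32.0 CPM). Low counts at this NDR were thus not particular to W303. At RSC30, W303 had 67.2 CPM, ssu72-2 replicate 3 had 49.6 CPM and H4Q93E had 55.9 CPM. At CIC1, W303 had 45.7 CPM and H4d4-14 replicate 2 had 26.1 CPM. Most samples of the other groups were above W303 at RSC30 and CIC1. With the deeper W303 library alone the edgeR call at YHR054C was lost (edgeR adjusted p = 0.491), as were those at CIC1 and RSC30 (edgeR adjusted p = 0.196 for both).

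Single low NDRs were called at the starts of CYC3, the cytochrome c heme lyase gene (log2 -1.02), and SIS2, a phosphatase regulator gene (-1.15). Others were called at the starts of CLD1, a cardiolipin lipase gene (-0.83), and MCM3, a subunit of the replicative helicase (-0.71). A further one lay near the noncoding gene YNCG0032W (-1.12). Most samples of the other groups were higher than W303 at CYC3, SIS2 and MCM3, but some were lower. CYC3 had 31.6 CPM in W303 and 26.1 CPM in H4d4-14 replicate 2. SIS2 had 25.1 CPM in W303 and 22.7 CPM in top1d replicate 1. MCM3 had 51.0 CPM in W303 and 41.0 CPM in diamide replicate 2. With the shallower W303 library alone the call at CYC3 was lost (edgeR adjusted p = 0.931), with the deeper one that at CLD1 (edgeR adjusted p = 0.136), and with either one that at SIS2 (edgeR adjusted p = 0.056 and 0.065). The W303 value at MCM3 was 51.0 CPM, against 56.4, 83.3 and 99.8 CPM at the lowest, median and highest in BY4741 (edgeR adjusted p = 0.0366). With either W303 library alone it missed the test (edgeR adjusted p = 0.276 and 0.134), and it also missed it without BY4741 replicate 1, 7, 10, 15 or 18 (edgeR adjusted p = 0.052 to 0.064).

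MEP1 was the site where W303 was called higher than BY4741. It encodes an ammonium permease that takes up ammonium when nitrogen is scarce. Its NDRs at 733070 and 733354 bp on chromosome VII had 137 and 143 CPM in W303, and the next one, at 733640 bp and the start of YGR122W, had 140 CPM. At 733070 bp the BY4741 replicates had 58.8, 73.5 and 116 CPM at the lowest, median and highest. The groups did not overlap at any of the 3, and the libraries of W303 lay close together, at 140 and 136 CPM at 733070 bp. The log2 values were 0.85, 0.77 and 0.68 (edgeR adjusted p = 0.00102, 0.00405 and 0.0142). The 3 lie within 1 kb, so a pair may span several of them and they are not independent measures. These calls were lost when all groups of the series entered the fit (edgeR adjusted p = 0.068, 0.102 and 0.230), and that of YGR122W also with the deeper W303 library alone (edgeR adjusted p = 0.054). With the column-name number as a block in that fit of all groups, the log2 values were 0.58, 0.63 and 0.50 and none passed (edgeR adjusted p = 0.337, 0.227 and 0.408). High counts at this site were not particular to W303. At 733640 bp, where W303 had 140 CPM, H4d4-14 replicate 2 had 165 CPM, rtt109d replicate 3 had 157 CPM and med1d replicate 3 had 141 CPM. Most samples of the other groups were lower than W303 there. The other ammonium permeases, MEP2 and MEP3, had log2 values of -0.26 and -0.34 at their starts and were not called. Just beyond, the NDR near YNCG0032W at 736172 bp was one of the low ones.

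Position along the chromosome was described after these values were seen, so it carries no test. Of the 503 NDRs within 30 kb of a chromosome's outermost gene or NDR, 22 were called lower (4.37%) and 57 lay below the BY4741 range, with a median log2 value of -0.15. Of the other 6216 NDRs, 18 were called lower (0.290%), 96 lay below the range, and the median was 0.00. Within 10 kb of the end there were 189 NDRs, of which 15 were called lower and none lay above the range, with a median of -0.51. The distances are to the outermost gene or NDR in the tables, not to the telomere itself. The BY4741 replicates themselves spread widely at some of these NDRs, as at AIF1 and PAU6, where the highest value came from replicate 17.

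**Figure D1:**
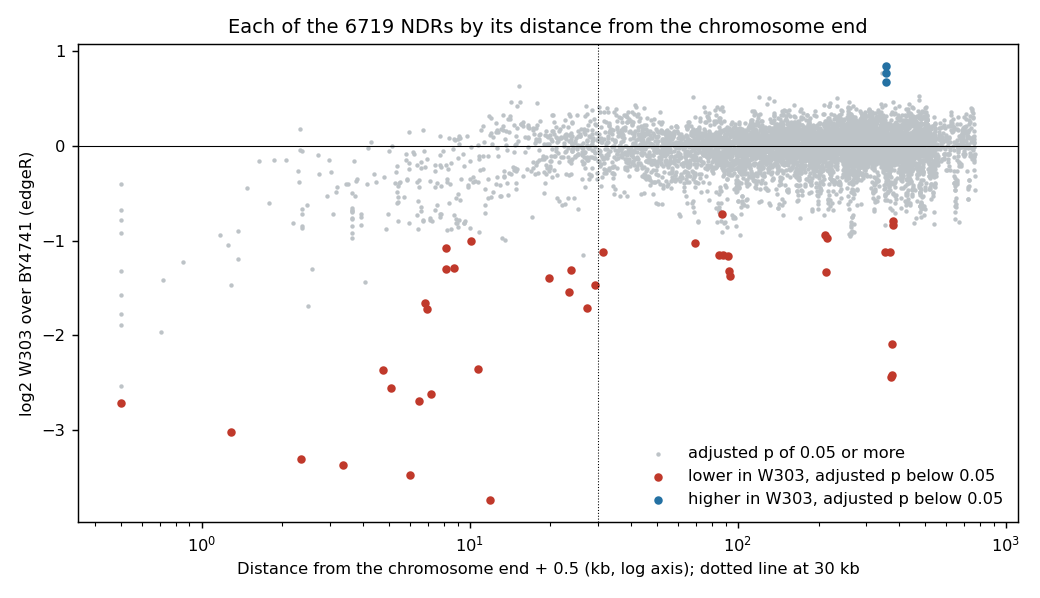
log2 of W303 over BY4741 for each of the 6719 NDRs (vertical axis) against its distance from the chromosome end in kb (log axis), with called NDRs as large points. Called low NDRs gather left of the dotted line at 30 kb, with further groups in the interior, while the 3 high ones lie far inside chromosome VII.

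NDRs near Ty elements, the yeast retrotransposons, were often below the BY4741 range in W303. By the rule given below, 34 Ty frames were found in the annotation. Among the 160 NDRs within 1 kb of them, 26 lay below the BY4741 range and 1 above, with a median log2 value of -0.46. Of the 160, 2 were called lower (1.25%), both beside YHL009W-B. Among the other 6559 NDRs, 38 were called lower (0.579%), 127 lay below the range and 90 above, and the median was 0.00. The frames were taken as genes of Ty length whose locus name ends in a hyphen and a letter, a choice made after the values were seen. Ty frames named otherwise were not counted, and the rule found no frame on chromosomes I, V and XIII. The other 6559 NDRs may therefore include some beside Ty elements. At the frame YBR012W-B on chromosome II, W303 had 243 CPM at 261395 bp, against 266 CPM in the lowest BY4741 replicate, and a log2 value of -0.95 that was not called. Ty copies are nearly identical, so their reads are uncertain.

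Chromosome I was the one whose share of pairs left the BY4741 range. It held 1.36% of the NDR-spanning pairs of W303 (95% Wilson interval 1.34% to 1.37%, which covers counting error only), against 1.39%, 1.49% and 1.72% at the lowest, median and highest in BY4741, and 1.45% in BY4741 replicate 5. The W303 libraries alone had 1.31% and 1.40%, of which the second lay within the BY4741 range. Of its 100 NDRs, 77 had a log2 value below 0, the median was -0.21, and 16 lay below the range. Without its called or 2-fold lower NDRs, the share of W303 was 1.30%, within the 1.27% to 1.55% of BY4741, and the median of the remaining 91 NDRs was -0.17. The shares of the other 15 chromosomes lay within the BY4741 range, and their median log2 values lay between -0.06 and 0.03. Chromosome XII, which carries the repeated ribosomal DNA, held 32.1% of the pairs in W303 and 26.4% to 43.7% in BY4741. CDC19, the pyruvate kinase gene on chromosome I, had 31.2 CPM in W303, below the lowest BY4741 replicate at 34.4 CPM, and was not called (log2 -0.81, edgeR adjusted p = 0.376).

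The strain labels could be checked only in part. BY4741 lacks URA3, LEU2 and MET17 (also called MET15) by design. In the deposited gene tables the pooled short-fragment signal of BY4741 was 17.0 at URA3, 10.9 at LEU2 and 7.42 at MET17, against a median of 534 over all genes. At HIS3, where BY4741 carries a partial deletion, it was 301. W303 has no column in those tables. The NDR-spanning counts did not show the deletions: the NDR inside URA3 had 57.5 CPM in W303 and 53.6 CPM at the BY4741 median, and that inside LEU2 had 219 CPM in W303 and 218 CPM at the BY4741 median, both with W303 within the range. The NDR inside MET17 had 105 CPM in W303, within the BY4741 range but above its median, against 37.4, 59.2 and 116 CPM at the lowest, median and highest in BY4741, and it missed the test (log2 0.78 ± 0.20, edgeR adjusted p = 0.0733). Without BY4741 replicate 16, 17 or 18 it passed (edgeR adjusted p = 0.020, 0.019 and 0.024). A count across an NDR inside a deleted gene was therefore present in BY4741, so the counts at markers do not test the strain.

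The genes in which W303 strains carry point alleles, ADE2, TRP1, CAN1, SSD1 and RAD5, had 5 NDRs at their starts, with log2 values of -0.22 to 0.18, none called and none outside the range. The same held for the mating-type and silencing genes (6 NDRs, -0.21 to 0.17), the a-specific genes (6 NDRs, -0.12 to 0.33) and the alpha-specific genes, of which only the receptor gene STE3 had an NDR (0.33). Among the a-specific genes, STE2, the alpha-factor receptor gene, had 69.2 CPM in W303, near the highest BY4741 replicate at 69.6 CPM, and 86.2 CPM at an NDR inside the gene, above the highest at 77.4 CPM, which was not called (log2 0.42).

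Of the gene lists, only the copy-number and subtelomeric families had called members. Of their 58 start NDRs, 4 were called lower (6.90%) and 11 lay below the range, with a median log2 value of -0.32. Over all NDRs 0.595% were called lower, 2.28% lay below the range and the median was -0.01. The 4 were at COS12, PAU11, HXT17 and HXT6. Other members were not called: COS2 had a start value of -1.19, COS4 and COS7 had values of -0.77 and -1.78 at their nearest NDRs, and PHO12 had -0.86, all with W303 within the wide BY4741 range. The maltase and maltose-permease genes MAL11, MAL12, MAL31, MAL32 and MAL33 had values between -0.05 and 0.15 at their starts or inside them, within the range.

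Over all 6719 NDRs, edgeR called 0.64% in either direction and DESeq2 called 48. An unadjusted edgeR p below 0.05 was found at 3.54% of all NDRs, 2.6% lower and 0.938% higher. None of the other lists had an NDR called by edgeR. Of their 413 NDRs, 8 had an unadjusted p below 0.05, 5 lower and 3 higher, and DESeq2 called 1, at COX6, a cytochrome oxidase subunit gene close to CIC1 on chromosome VIII (log2 -0.73, edgeR adjusted p = 0.108). Without BY4741 replicate 11 edgeR called it as well (adjusted p = 0.021). The ribosomal protein genes (101 NDRs) had a median log2 value of -0.11 and a range of -0.65 to 0.36, and none lay outside the BY4741 range. The ribosome biogenesis genes (73 NDRs) had a median of 0.00, the proteasome genes (33) 0.05, the respiration genes (39) -0.03, the glycolysis genes (24) -0.13, the stress-induced genes (24) -0.06 and the histone genes (9) -0.14. Haploid and pheromone genes (14) had 0.10, genes of Hap1 and heme regulation (14) -0.15, purine synthesis (16) -0.05, sulfur and methionine genes (22) -0.01, uracil and leucine synthesis (19) -0.06, and tryptophan and histidine synthesis (14) -0.05. Above the range, uncalled, lay HIS4, a histidine synthesis gene, with 146 CPM in W303 against 128 CPM in the highest BY4741 replicate (log2 0.52), and ADE12, of adenine nucleotide synthesis, with 60.7 CPM in W303 against 56.6 CPM (log2 0.50).

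The same sites were read in rtt109d and ssu72-2, side by side and with the same BY4741 replicates as background. Those replicates were grown at 30 °C, but ssu72-2 at 32 °C. The rtt109d strain lacks a histone H3 acetyltransferase, and ssu72-2 carries an allele of an RNA polymerase II phosphatase. The labels give no parent strain for either. The pooled short-fragment signal of rtt109d was 432 at URA3, 589 at LEU2 and 666 at MET17, against a median of 620 over all genes. In BY4741 these were 17.0, 10.9 and 7.42, against a median of 534. The pool does not separate the rtt109d replicates, and its bearing on the counts below was not tested. At HXT17 (772160 bp) the counts were 6.88 CPM in W303, 110, 11.9 and 9.99 CPM in rtt109d replicates 1 to 3, 123, 104 and 105 CPM in ssu72-2 replicates 1 to 3, and 53.5 to 125 CPM in BY4741. At PAU11 (6210 bp) they were 12.1 CPM in W303, 92.0, 11.9 and 17.5 CPM in rtt109d, 111, 135 and 133 CPM in ssu72-2 and 106 to 232 CPM in BY4741. At these NDRs, rtt109d replicates 2 and 3 were close to W303, while rtt109d replicate 1 was within the BY4741 range at HXT17 and just below it at PAU11.

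HXT6 showed another arrangement. Its NDR at 1159373 bp had 15.0 CPM in W303, 101, 55.6 and 57.5 CPM in rtt109d replicates 1 to 3, 6.30, 4.50 and 6.20 CPM in ssu72-2 and 35.3 to 116 CPM in BY4741. Here all 3 ssu72-2 replicates were low and rtt109d was not. The BY4741 sample grown at 32 °C, the temperature of ssu72-2, had 93.1 CPM at this NDR. YMR320W had 36.8 CPM in W303, 117, 23.8 and 57.5 CPM in rtt109d and 92.4 to 187 CPM in BY4741. MEP1 (733070 bp) had 137 CPM in W303, 95.1, 413 and 122 CPM in rtt109d, 123, 83.3 and 74.4 CPM in ssu72-2 and 58.8 to 116 CPM in BY4741, with rtt109d replicate 2 the highest by far. Over the 40 NDRs called lower in W303, the median log2 value over the BY4741 median was -1.34 in W303, 0.07, -1.51 and -0.93 in rtt109d replicates 1 to 3, and 0.28, 0.01 and 0.04 in ssu72-2 replicates 1 to 3. Of these 40 NDRs, 39 lay below the BY4741 range in W303, 6, 30 and 26 in rtt109d replicates 1 to 3, and 8, 11 and 9 in ssu72-2. Over all 6719 NDRs the counts below the range were 153 in W303, 364, 551 and 430 in rtt109d and 269, 271 and 420 in ssu72-2. In the remaining groups, the count among the 40 ran from 0 in rpd3d replicate 1 to 16 in H4K16Q. It was 15 in med1d replicate 2 and 11 in diamide replicate 1. Over all NDRs these samples had, in the same order, 217, 175, 656 and 437 below the range. The values share the BY4741 replicates and the NDRs were chosen on W303, and why rtt109d replicates 2 and 3 differ from replicate 1 was not tested.

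**Figure D2:**
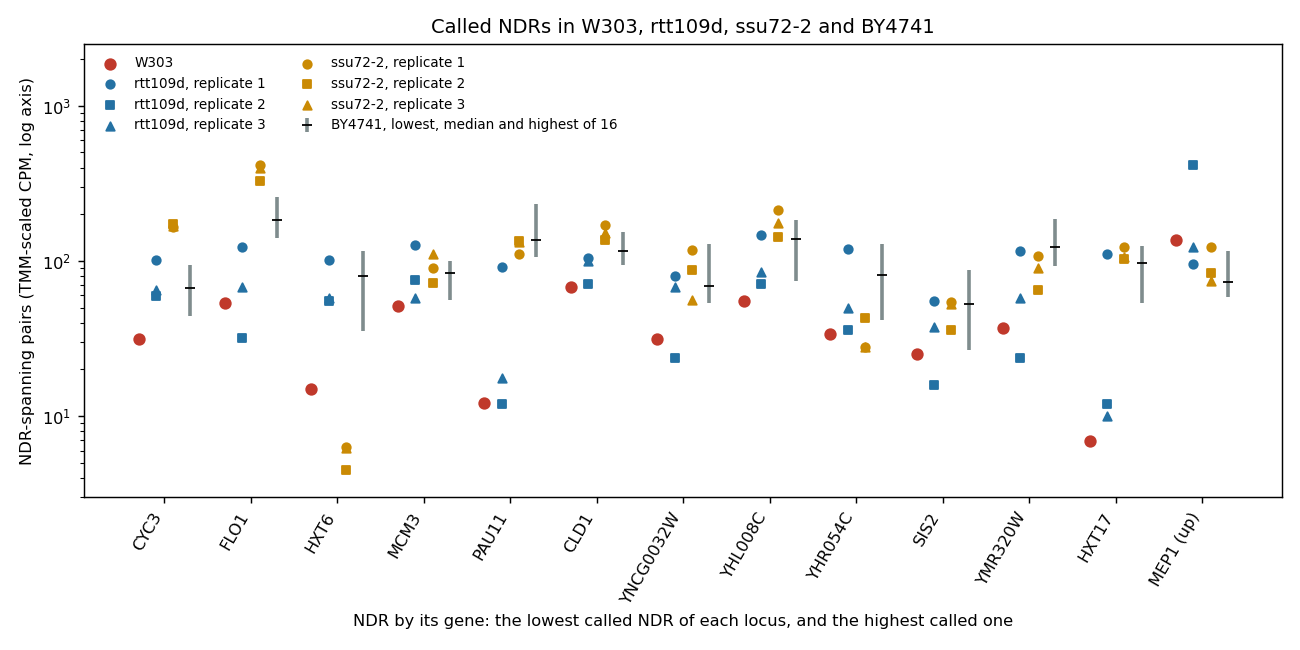
NDR-spanning pairs (TMM-scaled CPM, log axis) at the lowest called NDR of each locus and at the highest called one (MEP1), in W303, in each rtt109d and ssu72-2 replicate, and as lowest, median and highest of 16 BY4741 replicates. At PAU11 and HXT17, W303 at 12.1 and 6.88 CPM lies beside rtt109d replicates 2 and 3, and at HXT6 the ssu72-2 replicates lie below W303.

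The distance tables ask whether nucleosome-scale folding as a whole differed between the strains. Read pairs are listed by distance up to 10000 bp and by the orientation of their ends. Of 18 measures, 15 lay within the range of the 16 BY4741 replicates. The smallest two-sided p that 1 against 16 allows is 0.118 in the exact permutation test, so no single measure can pass 0.05. W303 had 24925477 listed pairs, against 1278747 to 16480078 in BY4741.

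IN-IN pairs, whose ends point inward and which unligated fragments also give, made up 78.6% of pairs in W303 and 82.7% ± 5.81 in BY4741 (SD, n = 16, exact permutation p = 0.588). IN-OUT pairs made up 5.98% in W303 and 4.98% ± 1.62 in BY4741, OUT-IN pairs 6.07% in W303 and 4.92% ± 1.56 in BY4741, and OUT-OUT pairs 9.32% in W303 and 7.42% ± 2.74 in BY4741 (SD, n = 16). The libraries of W303 had IN-IN shares of 80.5% and 77.0%. NDR-spanning pairs were 8.78% of listed pairs in W303, against 4.24%, 6.37% and 13.1% at the lowest, median and highest in BY4741, and 4 BY4741 replicates had a larger share.

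The reach ratio compares same-direction pairs (IN-OUT plus OUT-IN) farther apart, at 500 to 1000 bp, with nearer ones, at 100 to 500 bp, on a log2 scale. It was -1.88 in W303, with -1.85 and -1.91 in its libraries, and -2.24 ± 0.26 in BY4741 (SD, n = 16). W303 was 0.35 higher than the BY4741 mean, and 2 BY4741 replicates were higher still (exact permutation p = 0.353). BY4741 replicate 5 had -2.38. Same-direction pairs up to 500 bp were 65.1% in W303 and 70.0% ± 3.55 in BY4741, and those from 500 to 1000 bp were 15.4% in W303 and 12.9% ± 1.75 in BY4741. W303 thus lay toward the long side of BY4741 without leaving its range. From 1 to 10 kb the slope of log10 pair density on log10 distance was -1.33 in W303 and -1.24 ± 0.11 in BY4741.

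The nucleosome ladder, the series of peaks in IN-OUT pairs 1, 2, 3 and 4 nucleosome repeats apart, had its first peaks at 163, 326, 493 and 666 bp in W303. In BY4741 the lowest, median and highest replicates had 143, 154 and 166 bp at the first peak and 316, 324.5 and 332 bp at the second. The third peak of W303 was 2 bp beyond the BY4741 range of 434 to 491 bp, and the last 4 bp beyond the range of 619 to 662 bp. The third measure outside the range was the spacing between peaks 2 and 3, 167 bp in W303 against 108 to 166 bp in BY4741. These peaks are broad: the W303 libraries put the third peak at 496 and 491 bp and the last at 651 and 666 bp, and library differences this large exceed the margin over BY4741. The spacing between peaks 1 and 2 was 163 bp in W303 and 169 ± 6.02 bp in BY4741 (SD, n = 16, exact permutation p = 0.588). The difference of -5.94 bp turned to 3.38 bp with smoothing over 21 bp. After adjustment over the 18 measures the lowest p was 0.706.

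**Figure D3:**
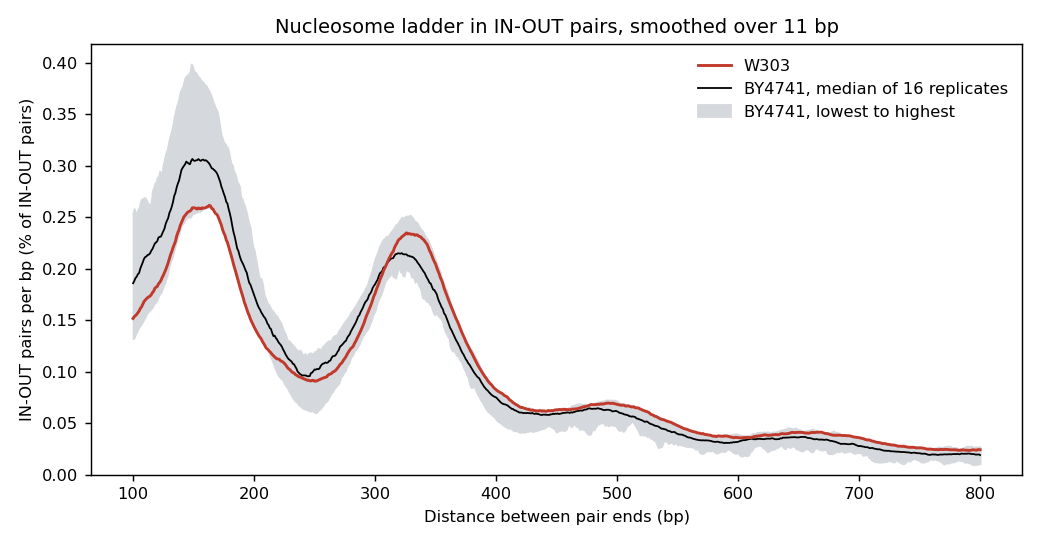
IN-OUT pairs per bp as a percentage of all IN-OUT pairs (vertical axis) against distance in bp, smoothed over 11 bp, for W303, the median of 16 BY4741 replicates and their lowest to highest values. The W303 curve peaks at 163 and 326 bp, lies in the lower part of the BY4741 band at the first peak and above the BY4741 median from the second peak on.

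**Figure D4:**
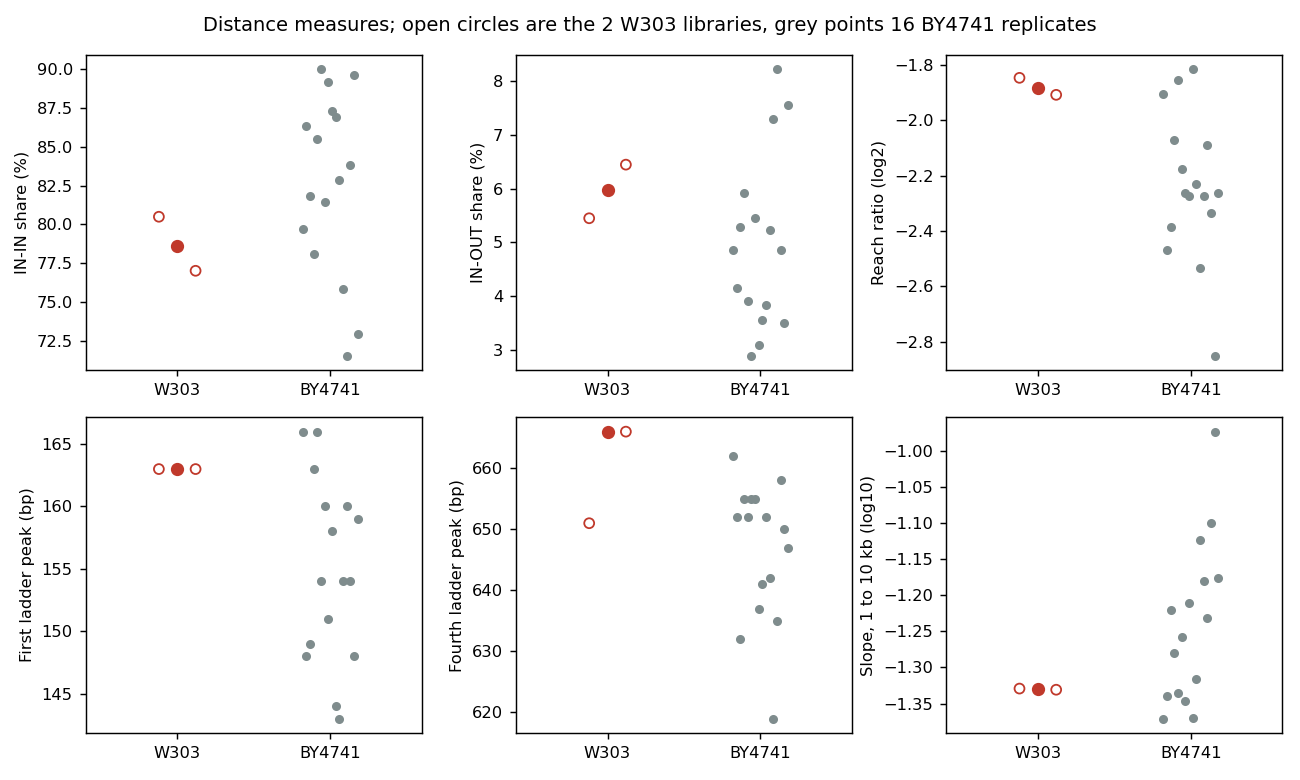
Distance measures for W303 (filled point, with its libraries as open circles) and 16 BY4741 replicates (grey points): IN-IN and IN-OUT shares (%), reach ratio (log2), first and last ladder peak (bp) and slope from 1 to 10 kb (log10). W303 lies within the BY4741 points in each panel except the last peak, at 666 bp.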

How the data were processed

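The authors deposited, per the file headers, whole-number counts of read pairs spanning each of 6719 NDRs and counts of pairs per bp of distance for 4 orientations, none normalised. Of the gene tables, whose deposited signal pools each group, only the short-fragment signal of BY4741 and rtt109d was used, at marker genes. CASAVA 1.8.2, Bowtie2 and sacCer3 are named in the submitters' processing notes, and the sources used here do not give how pairs were counted. Columns with no clear match to a sample were left out (25 in the NDR table, 48 per distance table). Repeat libraries of a replicate were summed.

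Counts of 1 W303 and 16 BY4741 replicates were fitted with edgeR 4.0.16 in R 4.3.3 (TMM, filterByExpr, which kept all 6719 NDRs, glmQLFit, glmQLFTest, two-sided, common dispersion 0.0269). DESeq2 1.42.0 was an alternative. In simulated data of this design, over 6719 NDRs, edgeR recovered 100% of 4-fold changes, 76% of 2-fold increases and 46% of 2-fold decreases, and called 0.123% of unchanged NDRs. The simulation gave every NDR the same dispersion, held no replicates like 13 and 17, and changed only NDRs above a minimum expected count. Its shares therefore do not apply to NDRs where the BY4741 replicates spread widely. CPM values of other groups use the same scale. Distance measures were compared by exact permutation. Gene names and positions came from RefSeq R64, on which sacCer3 positions were read. NDRs were named by rule: those called and outside the BY4741 range with the largest log2 values, runs of 3 or more neighbouring NDRs 2-fold outside the range, the marker and mating-type genes, and up to 4 members of each other list. Other NDRs named in the text were chosen after their values were seen. The strain comparison, members and lists were chosen with earlier results of these data known.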

Additional observations from a re-analysis of the deposited data

How the results depend on the processing

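The count of 43 called NDRs stayed at 43 with RLE size factors and with no filter on low counts, and was 48 with DESeq2 (45 lower, 3 higher), 41 and 34 with each W303 library alone, 49 without BY4741 replicate 17, 47 without replicates 13 and 17, and 38, all lower, with all groups in the fit. Leaving out each BY4741 replicate in turn gave 42 to 49 calls, of which 42 or 43 were among the original 43, MCM3 being the one lost. With listed pairs as library size edgeR called 0 NDRs (22 at an unadjusted p below 0.05). The column-name number as a block, in a fit of all groups, gave 272 calls (256 lower, 16 higher), of which 32 were among the 43. The cause was not tested for either. Of the 43, 28 passed in all of these fits except those with listed pairs or the block. The count of NDRs outside the BY4741 range, 244, was 468 with the deeper W303 library alone, and 248 to 314 when each BY4741 replicate was left out in turn. The count of NDRs 2-fold outside the range, 42, ran from 41 to 43 when each BY4741 replicate was left out, and was 39 with listed pairs (20 low, 19 high). Runs of 3 or more such NDRs numbered 6, and 5 to 7 with other settings. The share of chromosome I was 1.31% and 1.40% in the W303 libraries, and only the lower one lay below the BY4741 range. The difference in reach ratio, 0.35, ran from 0.29 to 0.39, and that in the first ladder spacing, -5.94 bp, became 3.38 bp with smoothing over 21 bp, where W303 stayed within the BY4741 range. No paired analysis was possible because W303 has 1 replicate and shares only replicate number 1 with BY4741. The alternatives with the block, without replicates 13 and 17 and with each replicate left out were chosen after seeing the data. On simulated data of this design, with the same dispersion at every NDR, 46% of 2-fold decreases were recovered.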
